A study of Mus musculus with 101 samples.

Results

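The ends of a ranking of mouse embryonic stem cell lines were compared: the 15 lines whose paternally methylated imprints stood highest above their maternally methylated ones, and the 15 lines where they stood lowest, out of 85 lines. For each line, the mean methylation of 4 target regions with a paternal mark was reduced by the mean of 15 target regions with a maternal mark. The paternal regions were the H19 control region on chromosome 7, the Dlk1-Meg3 intergenic region on chromosome 12 and 2 regions upstream of Rasgrf1 on chromosome 9; coordinates below are those of mm10. The Meg3 promoter, the Gpr1 region and 2 Zdbf2 regions also belong to the imprinting category of 23 regions but entered neither mean. The 15 lines at the high end are called paternal-skew lines, the 15 at the low end maternal-skew lines and the remaining 55 other lines. The lines were chosen by these measured values, so their 19 regions are described below without a test.

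The study asked how variable DNA methylation is among naive embryonic stem cell lines from Diversity Outbred mice, an outbred stock descended from several inbred founder strains. All groups share 1 treatment: every line grew in serum and LIF plus 2i, which blocks MEK and GSK3 kinases and keeps cells naive. Methylation was read by enzymatic methyl sequencing after capture with a Twist panel, and the authors deposited methylation fractions for 868 regions and 7917 CpGs, given here as percent. The labels give no genotype, age or derivation detail. They do not explain the line name prefixes B1, B2, B3A and B3B, a final N or the WA that ends 16 of the 101 sample titles.

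An imprinted gene is expressed mainly from the copy inherited from one parent, and most imprinted clusters are controlled by a region methylated in only the egg or only the sperm. After fertilization this mark is kept on its parental copy through the wave of demethylation in the embryo, with the help of the zinc finger proteins ZFP57 and ZFP445, which in mouse recognise methylated imprints and recruit repressors. Maternal marks often cover the promoter of a gene or of a long noncoding RNA, whereas the few paternal germline marks lie between genes. Culture of mouse embryonic stem cells in 2i is known for broad loss of DNA methylation, imprints included.

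Promoter sequences that lie in the compared regions are shown so that their CpGs and matches to the ZFP57 motif can be seen. Each runs 5′ to 3′ from 250 bases before to 50 bases after a gene start, from RefSeq on GRCm38.p6, the build that mm10 names too. Capitals mark the hexamer TGCCGC on either strand, which reads GCGGCA on the other one. The Zdbf2 promoter (chr1:63200108-63200407, plus strand) lies whole inside the Gpr1 region, and the Meg3 promoter (chr12:109540746-109541045, plus strand) inside the somatic Meg3 region. The promoter of Mest (chr6:30737800-30738099, plus strand) lies whole in a maternal region that the ranking used, and that of Nap1l5 (chr6:58907077-58907376, minus strand) has 124 of its 300 bases in another.
Zdbf2: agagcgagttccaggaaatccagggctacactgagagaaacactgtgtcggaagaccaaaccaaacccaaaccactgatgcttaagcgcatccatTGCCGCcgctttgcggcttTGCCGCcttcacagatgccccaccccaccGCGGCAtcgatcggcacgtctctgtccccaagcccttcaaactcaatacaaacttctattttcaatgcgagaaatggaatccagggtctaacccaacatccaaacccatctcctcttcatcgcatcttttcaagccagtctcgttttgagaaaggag
Meg3: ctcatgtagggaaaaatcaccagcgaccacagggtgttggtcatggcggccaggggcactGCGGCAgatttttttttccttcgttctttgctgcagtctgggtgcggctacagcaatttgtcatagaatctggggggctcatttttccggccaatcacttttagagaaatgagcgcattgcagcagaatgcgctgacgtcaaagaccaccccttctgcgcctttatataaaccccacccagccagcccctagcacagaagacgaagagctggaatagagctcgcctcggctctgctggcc
Mest: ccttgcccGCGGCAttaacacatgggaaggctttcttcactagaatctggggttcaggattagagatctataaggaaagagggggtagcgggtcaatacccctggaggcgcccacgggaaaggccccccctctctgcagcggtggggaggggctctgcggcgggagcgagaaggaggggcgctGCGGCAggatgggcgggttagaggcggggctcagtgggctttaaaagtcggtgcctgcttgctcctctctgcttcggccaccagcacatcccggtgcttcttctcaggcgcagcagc
Nap1l5: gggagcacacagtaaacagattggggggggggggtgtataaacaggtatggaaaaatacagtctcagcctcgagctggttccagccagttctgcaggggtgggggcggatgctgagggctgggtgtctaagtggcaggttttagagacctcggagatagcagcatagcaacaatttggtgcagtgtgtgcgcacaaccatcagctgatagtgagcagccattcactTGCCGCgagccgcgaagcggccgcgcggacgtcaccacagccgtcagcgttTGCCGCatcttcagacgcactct
The Zdbf2 promoter holds 15 CpGs and 3 copies of the hexamer, the Meg3 promoter 13 CpGs and 1 copy, and the Mest and Nap1l5 promoters 17 CpGs and 2 copies each. The hexamer was found in 9 of 14 promoters that overlap 10 of the imprinting regions, several of which overlap each other, and in 11.6% of all 32817 mouse promoters of the same length. The hexamer itself holds a CpG, and all mouse promoters had a median of 7 CpGs, so these shares are not matched for CpG content. The Impact region was left out of the search. A match describes the letters in these windows and is no measure of binding. Every sequence shown holds the hexamer. The Kcnq1ot1 and Zrsr1 promoters hold no copy, and their CpGs with a value differed by -10.3 and -20.3 points, paternal-skew minus maternal-skew lines. Any part of the hexamer in these values was not tested. At the 12 CpGs of the Zdbf2 promoter with a value, methylation averaged 9.29% in paternal-skew lines and 22.996% in maternal-skew lines. At the 13 CpGs of the Meg3 promoter it averaged 23.4% in paternal-skew lines and 30.1% in maternal-skew lines. The 14 CpGs along the whole Nap1l5 promoter, of a gene inside an intron of Herc3, averaged 9.82% in paternal-skew lines and 24.96% in maternal-skew lines.

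The names of both groups are only partly borne out by the values that chose them: the groups differed at maternal marks, while their paternal marks stood at nearly the same level in this ranking. The maternal mean was 17.6% ± 6.84 (SD, n = 15) in paternal-skew lines and 35.1% ± 7.96 (SD, n = 15) in maternal-skew lines. The paternal mean was 28.04% ± 9.15 in paternal-skew lines and 28.4% ± 7.502 in maternal-skew lines (SD, n = 15 each). Both groups were above the other lines in the paternal mean, which was 23.4% ± 12.9 (SD, n = 55) there. The maternal mean of the other lines, 21.7% ± 13.4 (SD, n = 55), lay between the groups. This balance depended on the ranking. With the ranking made without Rasgrf1 upstream region 1, chosen after the data were seen, the paternal mean differed by 6.06 points and the maternal mean by -9.35, against -0.36 and -17.5 as reported. With region means from the CpG table, which lacks both Rasgrf1 regions, they differed by 5.21 and -10.2 points.

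Paternal minus maternal means reached 23.8 points in line B1dB40, 19.5 in B1dB19 and 14.6 in B1dB25, with a median of 8.93 in paternal-skew lines. Maternal-skew lines had a median of -7.46 and ended at -9.76 in B1dA23 and -10.5 in B1dC17. The first 3 lines thus stood apart from their group, while both inner edges were continuous with the rest. At the high edge B2d2A was inside with 6.90 points and B2d11 outside with 6.47. At the low edge B3Ad11N was inside with -3.99 points and B3Bd26N outside with -3.94. Of the 85 lines, 30 had a negative value, and the 15 maternal-skew lines were among them.

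**Figure D1:**
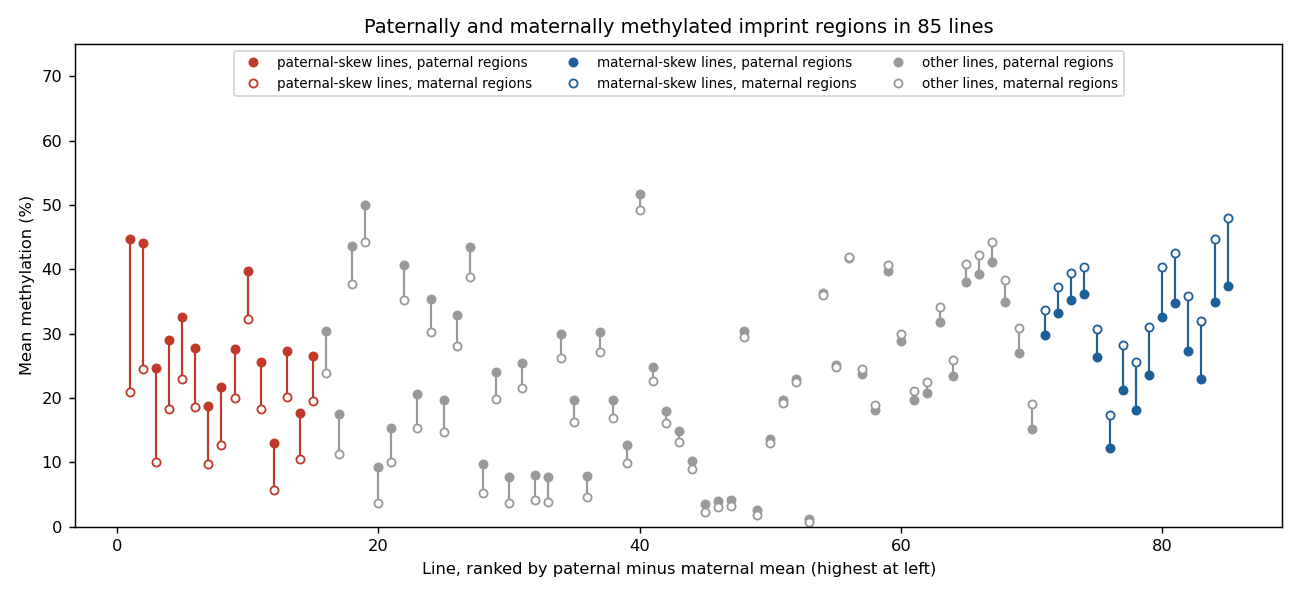
Mean methylation (percent) of the 4 paternal regions (filled points) and of the 15 maternal regions (open points) in each of 85 lines, ranked from the highest to the lowest difference, with a line joining both means of a cell line. The paternal means of both end groups cover similar levels (28.04% and 28.4% on average), and the open points of the paternal-skew lines lie lower than those of the maternal-skew lines (17.6% and 35.1% on average).

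Among the paternal regions, the H19 control region (chr7:142580501-142582201), which insulates Igf2 from its enhancers when unmethylated, overlapped no gene of the RefSeq table. It had 12.4%, 28.4% and 56.8% as the lowest, median and highest values of paternal-skew lines, against 15.4%, 39.01% and 53.6% in maternal-skew lines. The groups overlapped almost fully, and the mean was the lower one in paternal-skew lines, 32.3% against 38.4%. The Dlk1-Meg3 intergenic region (chr12:109527383-109530388), which sets the imprint of the Dlk1 and Meg3 cluster, averaged 29.2% ± 10.2 in paternal-skew lines and 33.7% ± 5.08 in maternal-skew lines (SD, n = 15 each).

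Rasgrf1, which encodes an activator of Ras proteins, held the only paternal region where the mean was higher in paternal-skew lines. Its upstream region 1 (chr9:89870292-89870657) averaged 24.1% ± 7.998 (SD, n = 10) in paternal-skew lines and 12.96% ± 11.98 (SD, n = 14) in maternal-skew lines. It was below 25%, midway between no methylation and the 50% of 1 methylated copy, in 5 of 10 paternal-skew lines and in 13 of 14 maternal-skew lines, 3 of which were at 0%. Region 2 (chr9:89879351-89880252) averaged 26.4% ± 14.04 (SD, n = 13) in paternal-skew lines and 28.6% ± 13.7 (SD, n = 15) in maternal-skew lines. Neither Rasgrf1 region has a CpG in the deposited CpG table. Region 1 was short, 366 bases, and lacked a value in 13 of 85 lines; its part in the ranking is given with the missing values below.

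Maternal regions were lower in the paternal-skew lines at each of the 15 loci, with mean differences from -14.2 points at Kcnq1ot1 to -22.8 at Impact. Impact, a gene of translation control, had the most maternal-skew lines above every paternal-skew line, 13 of 15. Its lowest, median and highest values were 0.626%, 11.4% and 20.97% in paternal-skew lines, against 9.27%, 35.9% and 51.1% in maternal-skew lines, and only 4 paternal-skew lines lay below every maternal-skew line. At Nespas and Nap1l5, 11 paternal-skew lines each lay below every maternal-skew line, and 9 and 8 maternal-skew lines lay above every paternal-skew line. Zrsr1 (chr11:22971800-22973000), an imprinted splicing factor gene inside Commd1, had 0.637%, 13.8% and 32.3% in paternal-skew lines, against 14.8%, 36.8% and 53.4% in maternal-skew lines. In all, 10 maternal-skew lines exceeded every paternal-skew line there.

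Peg13 (chr15:72809272-72809627), a noncoding RNA gene inside Trappc9, was the maternal region with the most methylation in both groups. It had 12.7%, 25.7% and 52.3% as the lowest, median and highest values in paternal-skew lines and 24.1%, 49.97% and 82.9% in maternal-skew lines. Kcnq1ot1 (chr7:143295618-143296585), the noncoding RNA whose promoter controls the Kcnq1 cluster, had 11.4%, 24.3% and 43.9% in paternal-skew lines and 25.9%, 39.03% and 44.6% in maternal-skew lines. The Kcnq1ot1 groups overlapped: 9 paternal-skew lines lay below every maternal-skew line, and only 2 maternal-skew lines lay above every paternal-skew line.

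The other maternal regions included those of signalling and growth genes. Grb10 (chr11:12025346-12026947), which encodes an adaptor that dampens insulin signalling, averaged 15.1% in paternal-skew lines and 33.2% in maternal-skew lines. Plagl1 (chr10:13090485-13091433), a zinc finger gene that can halt the cell cycle, averaged 14.1% and 28.7% in the paternal-skew and maternal-skew lines. The region at Igf2r and Airn (chr17:12742174-12742702), the start of the noncoding RNA that silences Igf2r, averaged 20.8% in paternal-skew lines and 36.2% in maternal-skew lines. Snrpn (chr7:60004339-60005334), at the imprinting centre of its domain, averaged 23.1% in paternal-skew lines and 38.5% in maternal-skew lines. The remaining regions, at Mest, Peg10, Peg3, Nnat, Nap1l5, Inpp5f and Nespas, had means between 13.7% and 18.1% in paternal-skew lines and between 29.3% and 36.1% in maternal-skew lines.

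**Figure D2:**
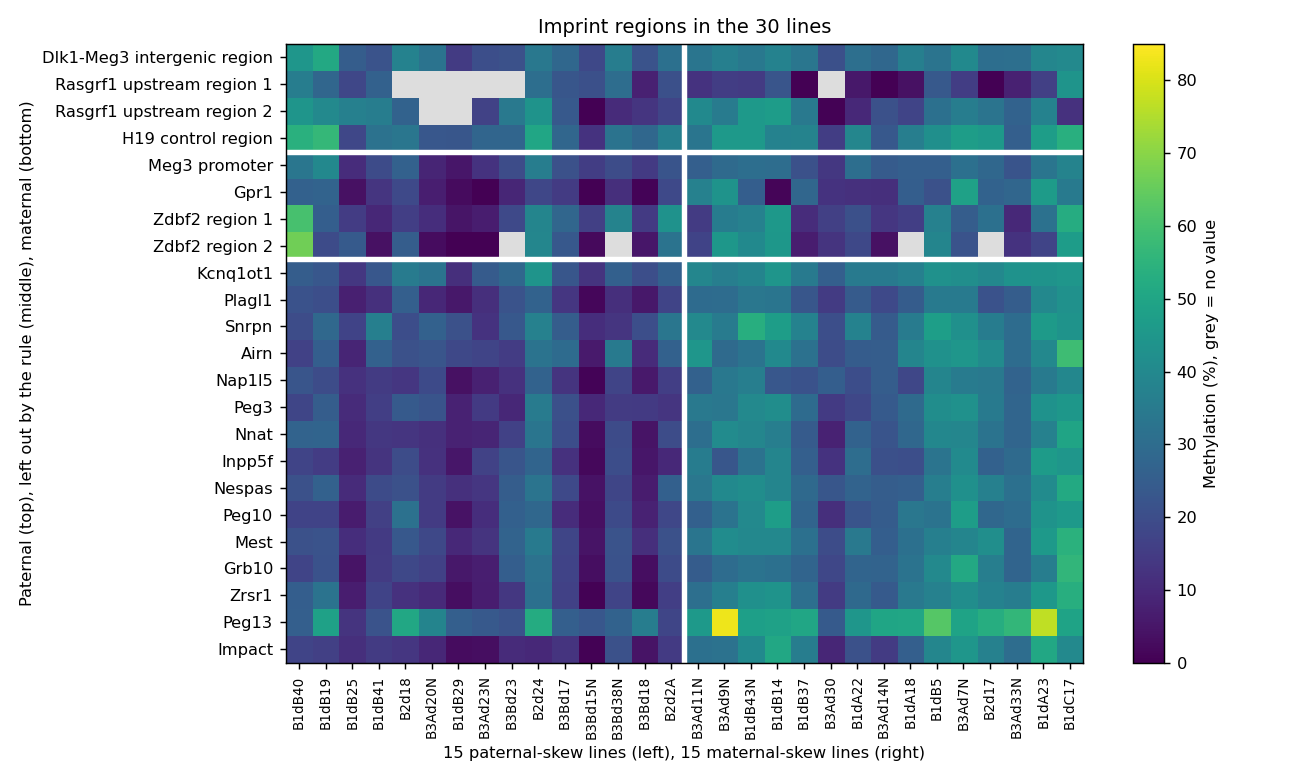
Methylation (colour, percent; grey where there is no value) of the 23 imprinting regions in 15 paternal-skew lines (left block) and 15 maternal-skew lines (right block), each in rank order. Paternal regions are at the top, regions that the ranking left out in the middle and maternal regions at the bottom, where the left block is darker; Impact reaches at most 20.97% in paternal-skew lines.

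Within single lines the split of both classes was seldom complete. All 4 paternal regions lay above every maternal region in 2 lines, B1dB40 and B1dB25, and in no maternal-skew line did all 4 lie below every maternal region. B1dB40 had a paternal mean of 44.7% beside a maternal mean of 20.9%, and B1dB25 had 24.6% beside 10.04%. B3Bd15N, also a paternal-skew line, had the lowest maternal mean of its group, 5.74%, with a paternal mean of 12.9%. At the other end B1dC17 had a paternal mean of 37.4% and a maternal mean of 47.9%, both high.

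Missing values were unequal between the groups and bear on how the lines were chosen. Paternal-skew lines lacked 87.5 ± 32.2 of 868 regions and maternal-skew lines 62.4 ± 19.3 (SD, n = 15 each; two-sided permutation p = 0.0115, a test added after the data were seen). Within prefixes the difference was 20.8 regions in B1 (5 against 8 lines, exact permutation p = 0.0793) and 41.5 in B3A (2 against 6 lines, exact permutation p = 0.143). At least 1 paternal region was missing in 5 paternal-skew lines and in 1 maternal-skew line, and their paternal mean rests on the remaining regions. The count of missing regions includes those of the ranking, so its test is not independent of how the lines were chosen. With the ranking made without Rasgrf1 the difference was 3 missing regions (permutation p = 0.733). Rasgrf1 upstream region 1, the one most often missing, had a mean of 15.2% over the 72 lines with a value, against 31.2% at H19 over 85 lines. The ranking without it kept 10 of the 15 paternal-skew and 10 of the 15 maternal-skew lines. Fewer were kept by the planned ranking without Rasgrf1, 8 paternal-skew and 8 maternal-skew lines. With region means from single CpGs, 9 paternal-skew and 7 maternal-skew lines were kept. The other rankings, such as on log2 odds or without H19, kept 9 to 14 paternal-skew and 12 or 13 maternal-skew lines. Maternal-skew lines B1dB5 and B1dC17, which match titles with and without WA, lacked 33 and 39 regions. B3Ad7N, which matches such titles only when its final N is dropped, lacked 33. No paternal-skew line matches a title with WA, and any part of WA in these values was not tested. The tables hold no read counts, so depth is unknown.

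The groups also differed in the prefixes of their line names, which the ranking did not use. Paternal-skew lines comprised 5 B1, 3 B2, 2 B3A and 5 B3B lines, and maternal-skew lines 8 B1, 1 B2, 6 B3A and 0 B3B lines. The chi-square statistic of prefix by group was 8.69 (permutation p = 0.0275). No single prefix passed on its own; for B3B, with 5 against 0 lines, Fisher's exact test gave an adjusted p of 0.169 over the 4 prefixes. A ranking on the residual from library level ended the call (statistic 5.58, permutation p = 0.185). Columns with a final N numbered 4 in paternal-skew lines and 6 in maternal-skew lines (Fisher's exact test, p = 0.700). Within B1 and B3A, the maternal mean still differed by -21.1 and -15.8 points, and the paternal mean by 1.28 and -0.46 points; these are descriptions.

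Methylation outside the imprinting category did not separate the groups past the threshold of 0.05. Regions outside this category still include some of imprinted genes, such as Gnas, Magel2 and Peg10. Library level, the mean of 764 regions outside the imprinting category, was 6.28%, 18.02% and 35.8% as the lowest, median and highest in paternal-skew lines, against 10.1%, 23.98% and 43.7% in maternal-skew lines. The ranges overlapped nearly in full, and the means were 18.9% ± 8.53 in paternal-skew lines and 22.9% ± 9.09 in maternal-skew lines (SD, n = 15 each). The difference was -3.99 points ± 3.22 (SE; two-sided permutation p = 0.227). It was -5.85 points in B1 (5 against 8 lines, exact permutation p = 0.340) and -9.51 in B3A (2 against 6 lines, exact permutation p = 0.0714, the smallest this size allows). B2 had 1 maternal-skew line and B3B none, so neither gives a test, here or below. With 2 against 6 lines no exact test in B3A, above or below, could pass the threshold, so those p-values decide nothing. Leaving out the lines that lacked more than 87 regions left 6 paternal-skew against 13 maternal-skew lines. With this choice, made after the data were seen, the difference turned to 0.712 points. With the ranking made without H19 it was -10.1 points (permutation p = 0.00659).

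Across the 85 lines the paternal minus maternal difference had a Pearson r of -0.12 with library level (permutation p = 0.289, adjusted 0.482 over 5 relations) and a Spearman rho of -0.18 (p = 0.103, adjusted 0.206). Without the 2 lines farthest from the median level r was -0.04. Within prefixes r ran from -0.36 in B3A (20 lines, p = 0.115) to 0.14 in B3B (19 lines, p = 0.571), with -0.21 in B1 (p = 0.289) and 0.11 in B2 (p = 0.662), all by permutation.

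All 4 imprinted regions that the ranking left out had the lower mean in paternal-skew lines, as did 655 of all 766 tested regions. Of the 4, Gpr1 alone passed the threshold by permutation. The Gpr1 region (chr1:63199879-63200976) overlaps Gpr1, which encodes a receptor, and the start of Zdbf2; it is known as a maternal mark of the Zdbf2 domain, where Zdbf2 is expressed from the paternal copy. Its lowest, median and highest values were 0%, 11.4% and 27.1% in paternal-skew lines, against 1.15%, 26.6% and 48.6% in maternal-skew lines. In 7 maternal-skew lines it lay above every paternal-skew line, and the groups otherwise overlapped. The means were 11.4% ± 9.14 in paternal-skew lines and 26.9% ± 13.9 in maternal-skew lines (SD, n = 15 each), a difference of -15.4 points ± 4.29 (SE; two-sided permutation p = 0.00125, adjusted p = 0.005 over the 4 regions). In limma fitted over 766 regions the Gpr1 region was not called, with an adjusted p of 0.540, and 0.245 at equal library level.

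The Gpr1 call depended on which lines were chosen. Within prefixes the difference was -9.83 points in B1 (5 against 8 lines, exact permutation p = 0.224) and -26.8 in B3A (2 against 6 lines, exact permutation p = 0.0714). The B3A value is the smallest p this size allows, so that test could not pass. Without the lines lacking more than 87 regions, which left 6 against 13 lines, it was -10.4 points (permutation, adjusted p = 0.501). With the ranking made without Rasgrf1 upstream region 1 it was -7.58 (permutation, adjusted p = 0.535). Without B1dB40 and B1dB19, the 2 lines of highest difference, it was -17.8 points (permutation, adjusted p = 0.0018).

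The regions inside Zdbf2, known as a paternal mark that arises after fertilization, overlapped between the groups. Zdbf2 region 1 (chr1:63260549-63261295) had 4.95%, 16.2% and 60.4% as the lowest, median and highest values in paternal-skew lines, against 9.76%, 25.1% and 52.5% in maternal-skew lines. Its difference of -3.44 points did not pass (permutation p = 0.522), nor did that of region 2 (chr1:63263781-63263926), with 18.7% ± 19.6 in paternal-skew and 25.1% ± 15.7 in maternal-skew lines (SD, n = 13 each; permutation p = 0.371). Line B1dB40 had the highest values of its group at both, 60.4% and 66.5%, beside 26.3% at Gpr1. Gpr1 minus Zdbf2 region 1 within a line averaged -11.6 points ± 11.3 in paternal-skew lines and 0.355 ± 18.6 in maternal-skew lines (SD, n = 15 each; permutation p = 0.0417, a test added after the data were seen). That difference was -1.44 points within B1 (exact permutation p = 0.886) and -16.5 within B3A (exact permutation p = 0.0714).

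The Meg3 promoter (chr12:109540510-109543677), a paternal mark acquired after fertilization at a noncoding RNA gene, lies in the same cluster as the intergenic region that the ranking used and is not a separate domain. It had 4.997%, 19.8% and 39.6% as the lowest, median and highest values in paternal-skew lines, against 13.7%, 28.3% and 38.03% in maternal-skew lines. In 4 paternal-skew lines it lay below every maternal-skew line. The mean was 20.3% ± 10.04 in paternal-skew lines and 27.3% ± 5.79 in maternal-skew lines (SD, n = 15 each; permutation p = 0.0271, adjusted p = 0.0543), which did not pass over the 4 regions. The difference of -7.03 points was -7.76 within B1 (exact permutation p = 0.205) and -13.8 within B3A (exact permutation p = 0.0714). It turned to 1.17 points when Rasgrf1 was left out of the ranking and to 1.18 when region means came from the CpG table.

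**Figure D3:**
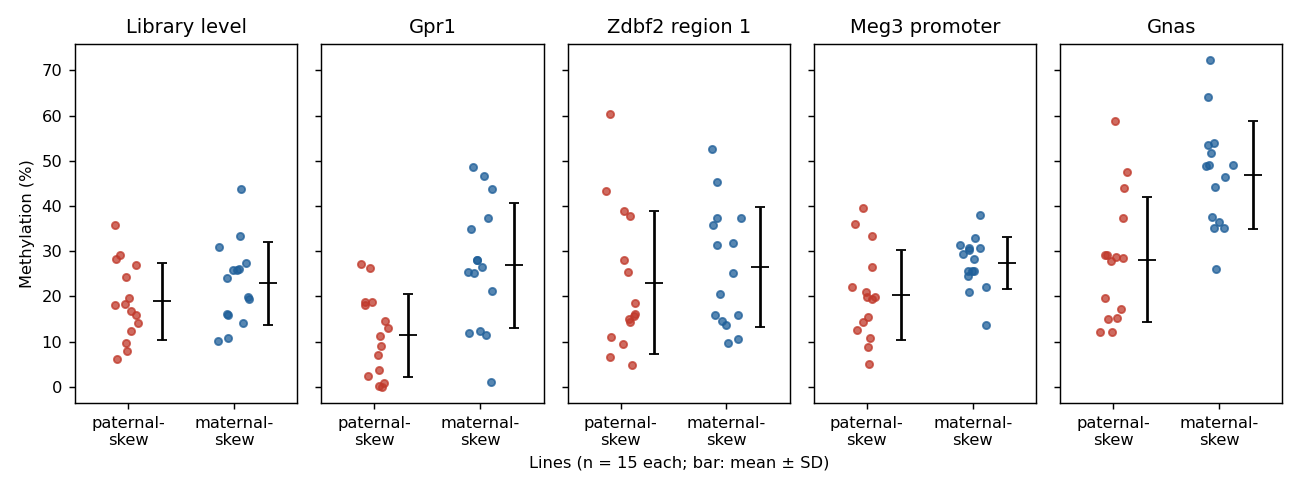
Methylation (percent) of each paternal-skew line (left in each panel) and maternal-skew line (right), with mean ± SD (n = 15 each), for library level, Gpr1, Zdbf2 region 1, the Meg3 promoter and Gnas. Every panel has the lower mean in paternal-skew lines, by the most at Gpr1 and Gnas, and the groups overlap in each.

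Most single CpGs in these regions had the direction of the region mean, although CpGs of a region can share reads and are no replicates. The lower mean in paternal-skew lines was also that of 655 of all 766 tested regions, so this direction is not particular to them. At Gpr1, 29 of 29 CpGs had a lower mean in paternal-skew lines; the means ran from 7.27% to 14.3% in paternal-skew lines and from 17.98% to 34.8% in maternal-skew lines, so the ranges did not meet. At the Meg3 promoter 31 of 31 CpGs were lower, by differences between -1.41 and -11.2 points. At Zdbf2 region 1 it was 7 of 8, and the CpG means ran from 8.09% to 31.4% in paternal-skew lines and from 11.8% to 27.7% in maternal-skew lines.

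**Figure D4:**
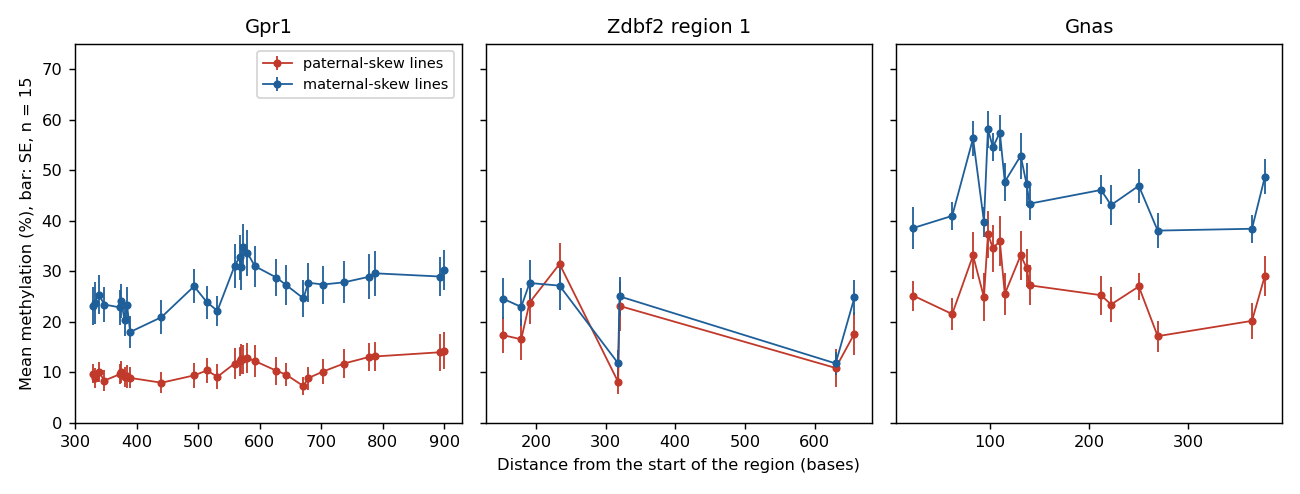
Mean methylation (percent, bars SE, n = 15 lines) of single CpGs in paternal-skew and maternal-skew lines against distance (bases) from the start of the Gpr1, Zdbf2 and Gnas regions. The curves stay apart along Gpr1 and Gnas and cross in Zdbf2 region 1.

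Outside the regions that chose the lines, the count of called regions depended on the ranking. Limma on log2 odds called 0 of 766 regions, 0% in either direction, and 50 had an unadjusted p under 0.05, 49 of them lower in paternal-skew lines. Most regions leaned the same way: 655 had the lower mean in paternal-skew lines and 111 the higher, with a median difference of -2.84 points. The largest fall, -18.8 points, was at Ctnna3, outside the imprinting category. With the ranking made without H19, where library level also differed, limma called 428 regions. At equal library level limma called 1 region lower, 0.131% of the 766, and none higher, 0%; 77 had an unadjusted p under 0.05, 48 of them lower, and 365 of all 766 estimates were negative.

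The 1 region called at equal level overlapped Gnas, which encodes the stimulatory G protein alpha subunit and sits in an imprinted cluster with several promoters. The region (chr2:174297917-174298416, category Cancer) starts 1373 bases from the Nespas region that the ranking used. Nespas differed by -17.0 points between the groups, which were chosen partly by its values. The Gnas region is part of the same imprinted cluster and not a separate domain, so its tests are not independent of the ranking. The Gnas region had 12.1%, 28.5% and 58.8% as the lowest, median and highest values in paternal-skew lines, against 26.2%, 48.8% and 72.2% in maternal-skew lines. In 6 paternal-skew lines it lay below every maternal-skew line, and in 14 of 15 it lay below the median of the maternal-skew lines. The means were 28.2% ± 13.9 in paternal-skew lines and 46.9% ± 11.9 in maternal-skew lines (SD, n = 15 each). The log2 odds differed by -0.95 ± 0.19 (SE) at equal level (limma, adjusted p = 0.0142) and by -1.26 ± 0.31 without the covariate (limma, adjusted p = 0.250). All 17 of its CpGs were lower in the paternal-skew lines, as were 655 of all 766 tested regions.

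Within prefixes Gnas differed by -19.9 points in B1 (5 against 8 lines, exact permutation p = 0.0280) and by -22.8 in B3A (2 against 6 lines, exact permutation p = 0.0714). With prefix as a term in limma the estimate at equal level was -0.91 (adjusted p = 0.167). Without the lines lacking more than 87 regions, which left 6 against 13 lines, it was -0.89 (limma, adjusted p = 0.162). With the ranking made without Rasgrf1 upstream region 1 it was -0.23 (limma, adjusted p = 0.9825). Without B1dB40 and B1dB19 it was -0.998 (limma, adjusted p = 0.0355).

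**Figure D5:**
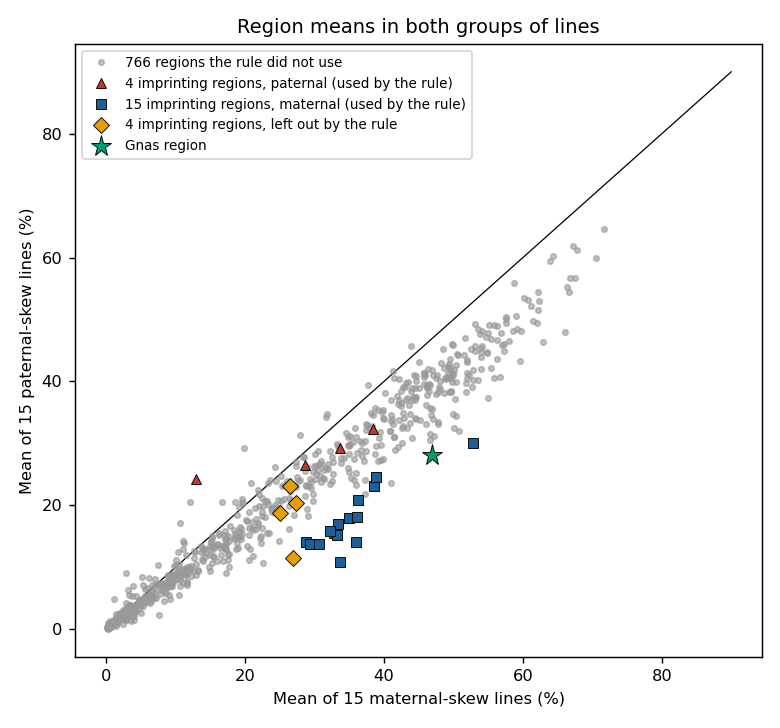
Mean methylation (percent) of each region over 15 paternal-skew lines (vertical axis) against its mean over 15 maternal-skew lines (horizontal axis), for 766 regions that the ranking did not use, the 23 imprinting regions and Gnas; the diagonal marks equal means. Most regions lie slightly below the diagonal (median difference -2.84 points), the maternal regions, Gpr1 and Gnas farther below it, and Rasgrf1 upstream region 1 above it. Some regions outside the imprinted clusters lie as far below it, down to -18.8 points at Ctnna3.

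No region of a listed gene outside the imprinted clusters was called. Of 10 tested regions of imprinted genes, all 10 had the lower mean in paternal-skew lines, beside 655 of all 766, with a median difference of -7.53 points against -2.84 over all regions tested, and limma called 0 without the covariate and 1, Gnas, with it. The 10 are not 10 loci, since 4 lie at Meg3 and 3 at Zdbf2 and Gpr1. Magel2 (chr7:62377557-62378056), a gene of the Snrpn domain, had 24.1% ± 16.2 (SD, n = 13) in paternal-skew lines and 37.2% ± 20.8 (SD, n = 15) in maternal-skew lines (limma, adjusted p = 0.612).

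Germline genes, which are silenced by promoter methylation in somatic cells, had the lower mean in paternal-skew lines at 15 of 17 regions, a share close to the 655 of all 766, with a median difference of -4.97 points against -2.84 and 0 limma calls in either fit. At an unadjusted p under 0.05 there were 3 without the covariate, all lower, beside 50 of all 766. At equal level there were 5, beside 77 of all 766. Of these germline regions 3 were lower and 2, Morc1 (log2 odds 1.02) and Rpl10l (0.96), were higher in paternal-skew lines. Both were named after their values were seen. Dpep3, a dipeptidase gene of the testis, had 39.1% ± 16.9 in paternal-skew lines and 52.6% ± 19.6 in maternal-skew lines, and Slc25a31, a mitochondrial carrier of the testis, had 25.4% ± 10.96 in paternal-skew lines and 34.9% ± 12.1 in maternal-skew lines (SD, n = 15 each). Taf7l, a germ cell transcription factor gene, had 38.01% ± 13.4 in paternal-skew lines and 47.4% ± 15.6 in maternal-skew lines (SD, n = 15 each; limma, adjusted p = 0.612 for each of these genes).

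Of the DNA methylation machinery, regions of Tet3, whose enzyme oxidises methylated cytosine, and of Dnmt3l, which assists de novo methylation, were tested. Tet3 had 56.6% ± 17.1 in paternal-skew lines and 66.8% ± 12.9 in maternal-skew lines, and Dnmt3l had 28.4% ± 14.7 in paternal-skew lines and 36.1% ± 18.6 in maternal-skew lines (SD, n = 15 each). Neither was called by limma (adjusted p = 0.612 and 0.621), and neither had an unadjusted p under 0.05. Zfp57, Zfp445, Trim28 and Dnmt1 had no tested region.

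Regions of Nanog and Zfp42, markers of the naive state, were nearly unmethylated in both groups. Nanog had 0.460% ± 0.859 in paternal-skew lines and 0.345% ± 0.571 in maternal-skew lines (SD, n = 15 each), and Zfp42 had 1.14% ± 2.55 (SD, n = 13) in paternal-skew lines and 0.669% ± 1.16 (SD, n = 15) in maternal-skew lines. None of 4 regions of naive pluripotency genes was called by limma or had an unadjusted p under 0.05. Lineage genes had the lower mean in paternal-skew lines at 6 of 6 regions, beside 655 of all 766, by a median of -0.94 points against -2.84, with 0 limma calls and 0 at an unadjusted p under 0.05. The region of Pax6, a regulator of eye development, had 59.5% ± 16.7 (SD, n = 14) in paternal-skew lines and 63.9% ± 17.1 (SD, n = 15) in maternal-skew lines. Foxa2, a transcription factor of endoderm, had 7.88% ± 3.88 in paternal-skew lines and 9.03% ± 4.04 in maternal-skew lines at the region with its largest difference (SD, n = 15 each). Gata4, also an endoderm factor, had 15.1% ± 7.69 in paternal-skew lines and 16.2% ± 8.50 in maternal-skew lines (SD, n = 15 each).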

How the data were processed

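Methylation of 85 mouse embryonic stem cell lines was read by EM-seq with Twist capture, per the labels' protocols. The authors deposited average methylation fractions for 868 regions and fractions for 7917 CpGs; the unit of the regions was read from their range, from 0 to 1. Trim Galore 0.6.4, Bismark, Bowtie2 and mm10 are named in the submitters' processing notes without settings. The tables' names state a coverage filter of 10, with no counts, so the depth is unknown and intervals for counting error were not possible. Of the 85 columns, 44 matched 1 title and 41 only their prefix; each was treated as a line. Whether they came from separate cultures is not stated, so p-values measure only the spread between columns.

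The 766 regions tested had values in 80% of lines or more and in at least 8 lines of each group; they exclude the 19 regions of the ranking and 1 further region overlapping them. Limma 3.58.1 (R 4.3.3) was fitted to log2((fraction + 0.01)/(1 - fraction + 0.01)), with and without library level on that scale as a covariate, with Benjamini-Hochberg adjustment over the 766 regions and a threshold of 0.05. The fit was tested on simulated data. Single values were compared by permutation (two-sided, 100000 resamples), exact for groups within prefixes (Python 3.11.15, SciPy 1.17.1). Region means recomputed from CpGs correlated with the deposited fractions at r = 0.990 over 1700 values of 20 imprinting regions, with a mean absolute difference of 1.45 points. These 20 exclude both Rasgrf1 regions. The paternal minus maternal difference from CpG means correlated with the one used for the ranking at r = 0.745. Genes came from RefSeq on GRCm38.p6, as overlapping a region or within 5 kb.

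Members and gene lists were chosen with earlier results of these data known. Genes named were those called (up to 10 in each direction, in either fit), up to 3 members of each list with the largest difference, and every imprinting region. The alternatives were other rankings, group sizes, filters, scales, a prefix term and omitted lines.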

Additional observations from a re-analysis of the deposited data

How the results depend on the processing

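Limma calls without the covariate, 0 as reported, were 428 with the ranking made without H19, 3 with it on log2 odds, 2 without the 2 lines of highest difference and 1 with the regions of the ranking kept in the adjustment. At equal library level, where 1 was reported, limma called 15 with 20 against 20 lines, 13 with the regions of the ranking kept, 9 without the 2 highest lines, 6 with a ranking on the residual from library level, 5 with an offset of 0.05 or with regions having a value in every line, and 3 on fractions or with a ranking on log2 odds. It called 0 with 10 against 10 lines, prefix as a term, CpG-table means, locus means, columns with a final N left out, lines lacking more than 87 regions left out, or a ranking without H19, the Dlk1-Meg3 intergenic region, Rasgrf1 or Rasgrf1 upstream region 1. Gnas kept its negative sign in 19 of 19 alternatives at equal level and its call in 9, with adjusted p from 0.00188 to 0.9825.

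Gpr1 stayed negative in 13 of 13 alternatives and lost its call in 7: -14.2 points with 10 against 10 lines, -10.6 without the Dlk1-Meg3 region, -10.4 without lines lacking more than 87 regions, -9.22 without a final N, -9.02 from the CpG table, -8.59 without Rasgrf1 and -7.58 without its region 1. Zdbf2 region 1 turned to 1.601 without the Dlk1-Meg3 region, 3.91 without Rasgrf1, 2.82 on the residual, 2.53 from the CpG table and 6.92 without lines lacking more than 87 regions, and was called at -13.5 without H19. Zdbf2 region 2 turned to 3.67, 4.53, 2.995 and 4.86 without the Dlk1-Meg3 region, without Rasgrf1, on the residual and without those lines, and was called at -16.1 without H19. The Meg3 promoter was called at -11.2 on log2 odds, -12.6 without H19 and -9.51 without the 2 highest lines, and turned to 1.17 without Rasgrf1 and 1.18 from the CpG table. Library level was called at -10.1 points without H19 and turned to 0.712 without lines lacking more than 87 regions. The correlation of the difference with library level was called at -0.24 on log2 odds and -0.26 without H19. The paternal mean difference of -0.36 ran from -2.87 without the 2 highest lines to 6.06 without Rasgrf1 upstream region 1. The prefix statistic of 8.69 was 5.58 on the residual. More missing values in paternal-skew lines lost the call in 6 of 13 alternatives, with a difference of 3 regions when Rasgrf1 was left out, and Gpr1 minus Zdbf2 region 1 lost its call in 7 of 13. The cause of these changes was not tested.

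The ranking without Rasgrf1 upstream region 1 was chosen after seeing the data. So was leaving out of the groups, without a new ranking, the lines lacking more than 87 regions or the 2 highest lines. Leaving out columns with a final N for single values was also chosen then. No paired analysis was possible because the columns carry no replicate numbers that the groups share. The depth behind each value is unknown, so a value from few reads could not be set apart.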

Other observations

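All 14 tested regions of chromosome X had the lower mean in paternal-skew lines, as did 655 of all 766 tested regions, with a median difference of -9.68 points against -2.84 over all. At equal library level 12 of 14 estimates were negative, beside 365 of 766. Several of the 14, such as Taf7l and Nxf2, belong to the germline categories. The larger of these had a median difference of -4.28 points over 114 regions, 67 of them with a negative estimate at equal level. Chromosome and category were not tested apart. The line names and titles give no sex, and any part of sex was not tested. Limma called 0 of the 14 in either fit, and 2 had an unadjusted p under 0.05 in each fit, beside 50 of 766 without the covariate and 77 at equal level. At Nxf2, a nuclear RNA export factor gene of the testis, the mean was 37.3% ± 19.5 (SD, n = 14) in paternal-skew lines and 55.04% ± 14.6 (SD, n = 12) in maternal-skew lines (limma, adjusted p = 0.612).

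Regions of the 2-cell stage category, which includes genes of the Pramel and Tdpoz families, had the lower mean in paternal-skew lines at 42 of 46 tested regions, a share near the 655 of all 766, with a median difference of -6.48 points against -2.84. Limma called 0 of them in either fit, and 9 had an unadjusted p under 0.05 without the covariate and 6 at equal level, beside the 50 and 77 of 766. At Pramel31 the mean was 40.5% ± 17.7 in paternal-skew lines and 55.9% ± 17.6 in maternal-skew lines (SD, n = 15 each; limma, adjusted p = 0.612). These genes were chosen after their values were seen.

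Line names that differ by 1 letter fell on different sides of an edge. B1dB37 was a maternal-skew line with -4.29 points, a paternal mean of 26.4% and a maternal mean of 30.7%, while B1dB37N was among the other lines with 4.82 points, 32.8% and 28.01%. Rasgrf1 upstream region 1 was at 0% in B1dB37 and had no value in B1dB37N. B2d2A was a paternal-skew line with 6.90 points, and B2d2 had 3.97. The labels do not say whether these columns come from related cultures.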
